A study of Mus musculus with 8 samples.

Results

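The genes described here are 7 genes of cholesterol synthesis and uptake, taken from 21992 protein-coding genes of the mouse annotation. The members were given by name, and every deposited open region that overlapped the body of one of them or lay within 10 kb of it was counted as belonging to it. ATAC-seq, in which a transposase cuts and tags open chromatin, was run on nuclei from frozen livers of adult C57BL/6 mice, with 4 control libraries and 4 Alb-D2KO libraries of 50000 nuclei each. In Alb-D2KO mice a floxed Dio2, the gene of the type 2 deiodinase that activates thyroid hormone, was deleted by Cre recombinase under the albumin promoter, so the deletion is directed to hepatocytes and the remaining cells of the liver keep the gene. The titles of the control libraries carry the name of the recombinase, and their genotype is given as control. The data are lists of regions on mm10 from calls on grouped libraries, taken here to be 1 call for each genotype because each list has its own region numbering. The first holds 8031 control regions that overlapped none called in Alb-D2KO liver, named RCAs for reduced chromatin accessibility. The other holds 250 regions called in Alb-D2KO liver that overlapped none called in control liver, described below as open only in Alb-D2KO liver. At Dio2 itself, on chr12:90724552-90738438, neither list had a region in the gene or within 10 kb.

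Cells make cholesterol from acetyl-CoA in a long series of enzyme steps and also take it up from lipoproteins. When sterols in the endoplasmic reticulum run low, the transcription factor SREBP2 is escorted to the Golgi, cut free of the membrane and sent to the nucleus, where it binds sterol response elements in front of the synthesis and uptake genes. INSIG proteins hold the SREBP escort in the endoplasmic reticulum while sterols are plentiful. The liver is the main organ of this traffic, since it makes cholesterol, receives it from high-density lipoprotein and disposes of it as bile acids, and several of its steps respond to thyroid hormone.

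Of the 7 genes, 3 had at least 1 RCA and 4 had none. The 8 RCAs were spread unevenly, with 5 at Scarb1, 2 at Soat2 and 1 at Insig2. The genes with RCAs were therefore the lipoprotein receptor, the cholesterol esterifying enzyme and 1 of the INSIG genes, while Srebf2, Hmgcs1, Sqle and Insig1 had no RCA in the body or within 10 kb. Over all protein-coding genes, 24.9% had at least 1 RCA in the same window, and 42.9% of the 7 genes did, with a 95% Wilson interval of 15.8% to 75.0% that covers counting error over genes only. No region open only in Alb-D2KO liver lay at any of the 7 genes, where 1.02% of all protein-coding genes had one. A region was either in a list or not. An RCA at a gene could thus mean fewer nuclei with the site open or less opening in each nucleus. It could also be a site open in both genotypes whose signal fell short of the calling cutoff in Alb-D2KO liver. These readings cannot be told apart in lists from bulk liver. The lists hold no value per library, so no value below has a replicate error, and the depth of the libraries is unknown.

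**Figure D1:**
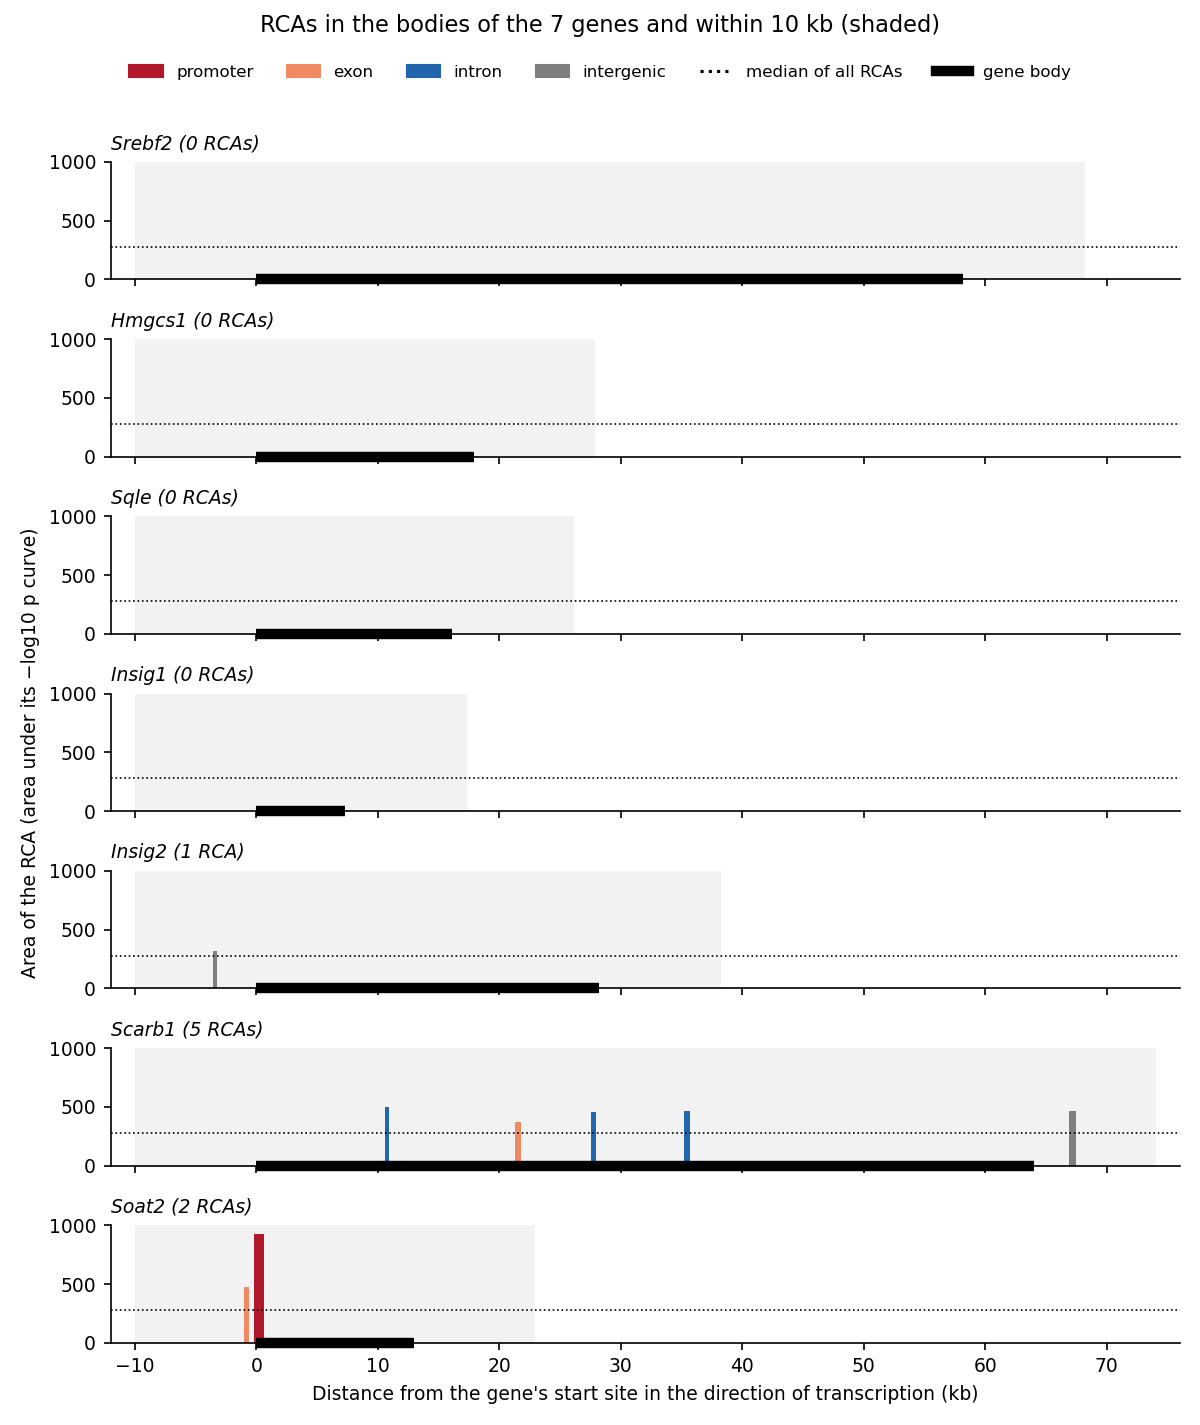
Each panel is 1 of the 7 genes, with its body as a black bar from the start site at 0 (distance in kb in the direction of transcription). The window of 10 kb on either side is shaded. Each RCA is drawn to scale, with the caller's area from the −log10 p curve as its height and its class as its colour. Scarb1 has 5 RCAs with areas from 367 to 495, Soat2 has 1 over its start with 925 and 1 upstream with 474, Insig2 has 1 upstream with 315, and the other 4 panels are empty.

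Soat2 encodes the acyltransferase of hepatocytes and enterocytes that esterifies cholesterol for storage and for packing into lipoproteins. It lies on chr15:102150526-102163469 (plus strand) and had the only promoter-class RCA of the 7 genes, a class given to regions within 200 bp of an annotated start site. With a window of 1000 bp the 7 genes had 4 such RCAs, and no share over all protein-coding genes is given for that window. With the window of 200 bp, a promoter-class RCA was found at 9.47% of all protein-coding genes and at 10.2% of the 2917 genes within 25% of the length of Soat2. This RCA, chr15:102150306-102151117, was 812 bp wide and covered the start site, the first exon and the first intron, with its summit 250 bp past the start in intron 1. Its area, the caller's signal from the −log10 p curve, was 925. That was at or above the area of 99.8% of all RCAs (median 278, quartiles 232 and 351) and of 99.6% of the 1560 promoter-class RCAs (median 304). The summit had a −log10 q of 3.60, against a median of 3.14 over all RCAs. Of its sequence, the part upstream of the first annotated start (chr15:102150306-102150414, plus strand) and 101 bases centred on the summit (chr15:102150726-102150826, plus strand, intron 1) are shown. They were read from the RefSeq copy of GRCm38.p6, the assembly that mm10 names. They show the DNA around the start site in a region called in control liver with no overlapping call in Alb-D2KO liver.
Soat2, upstream of the start: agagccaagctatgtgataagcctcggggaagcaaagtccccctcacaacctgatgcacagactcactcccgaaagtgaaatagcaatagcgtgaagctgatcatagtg
Soat2, summit in intron 1: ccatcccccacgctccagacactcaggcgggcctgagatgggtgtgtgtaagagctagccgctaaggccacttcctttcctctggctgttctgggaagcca
The RefSeq start of Soat2 lies 111 bp upstream of the GENCODE start, and the first of these stretches ends before both.

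The other RCA of Soat2, chr15:102149494-102149906, lay 620 bp upstream of its start and overlapped the end of an exon of the neighbouring gene Igfbp6, which put it in the exon class. It was 413 bp wide, with an area of 474 and a −log10 q of 3.70 at the summit. Both Soat2 regions were thus above the list in area and in summit −log10 q. The summit window of this upstream region (chr15:102149767-102149867, plus strand) held 1 copy of AGGTCA, the hexamer that nuclear receptors such as the thyroid hormone receptors bind, on the minus strand and in capitals here.
Soat2, upstream region: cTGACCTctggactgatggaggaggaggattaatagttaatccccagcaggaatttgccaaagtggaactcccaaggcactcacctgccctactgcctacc
With 2 RCAs, Soat2 stood among the 7.51% of genes of similar length that had 2 or more, and 0.686% of them had a summed RCA area as large as its 1399.

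Scarb1 encodes scavenger receptor class B type 1, the receptor through which hepatocytes take cholesteryl esters from high-density lipoprotein. It spans 64.0 kb on chr5:125277087-125341094 (minus strand) and had 5 RCAs. At least 5 RCAs were found at 0.696% of all protein-coding genes and at 1.05% of the 2006 genes within 25% of the length of Scarb1, where the largest number was 7 and 30.6% had at least 1. The summed area of 2248 was reached by 0.249% of those genes. None of the 5 was of the promoter class, although the nearest lay 846 bp and 867 bp from an annotated start site. From the start onwards they began 10.6, 21.3, 27.5 and 35.2 kb into the gene and 66.9 kb from the start, the last of them intergenic and 2903 bp beyond the 3′ end. All 4 RCAs in the body lay in intron 1 of the longest coding transcript, which is 36.4 kb long and makes up 56.9% of the gene, and none lay in the other introns of its 12. Of 931 first introns within 25% of that length, 20.6% held an RCA and 1.18% held 4 or more, with at most 5.

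The Scarb1 regions resembled each other in size and differed in how sharp they were. The widths were 327 bp for the region nearest the start, chr5:125330202-125330528, then 544 bp (chr5:125319286-125319829), 482 bp (chr5:125313107-125313588), 524 bp (chr5:125305409-125305932) and again 524 bp for the region beyond the 3′ end (chr5:125273661-125274184). In the same order the areas were 495, 367, 453, 468 and 465, a 1.35-fold range. The region nearest the start was the narrowest of them and had the largest area, with a summit −log10 q of 3.70, at or above that of 92.0% of RCAs. At the other end, the region beyond the 3′ end had a summit −log10 q of 2.97, at or above that of 31.2% of RCAs, although its area was at or above that of 91.7%. Its nearest annotated start site was not that of Scarb1 but of the noncoding gene Gm32585, 846 bp away. The region 21.3 kb into the gene counted as exon only through the unclassified transcript Gm42633, and lies in an intron of Scarb1. The windows of 81 bases around the 4 summits in intron 1 are shown on the strand of Scarb1, with any AGGTCA on either strand in capitals, because 4 of the 8 RCAs lie in this intron. They lie on chr5:125330289-125330369, chr5:125319503-125319583, chr5:125313403-125313483 and chr5:125305793-125305873 (minus strand).
Scarb1, 10.6 kb into the gene: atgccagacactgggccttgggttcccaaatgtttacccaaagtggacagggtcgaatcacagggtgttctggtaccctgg
Scarb1, 21.3 kb into the gene: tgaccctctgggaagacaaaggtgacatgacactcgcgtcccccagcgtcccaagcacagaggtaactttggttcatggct
Scarb1, 27.5 kb into the gene: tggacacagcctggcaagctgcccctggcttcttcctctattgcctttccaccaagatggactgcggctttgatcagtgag
Scarb1, 35.2 kb into the gene: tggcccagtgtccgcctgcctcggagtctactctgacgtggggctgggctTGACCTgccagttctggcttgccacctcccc
Of these windows, the one 35.2 kb into the gene held a copy of the hexamer.

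Insig1 and Insig2 encode the membrane proteins that retain the SREBP escort when sterols are high, Insig1 being itself a target of SREBP and Insig2 having a liver transcript that falls with insulin. Insig2 lies on chr1:121304353-121332589 (minus strand) and had 1 RCA, an intergenic region 3258 bp upstream of its start at chr1:121335847-121336151. This region was 305 bp wide, narrower than the median RCA of 326 bp, with an area of 315, the smallest of the 8 and at or above that of 64.5% of RCAs, and a summit −log10 q of 3.18. Its share of G and C, 42.3%, was low for an RCA (median 51.9%, at or above 4.56% of RCAs). The summit window (chr1:121335922-121336022, minus strand) is shown as that of the only RCA at an INSIG gene.
Insig2, upstream region: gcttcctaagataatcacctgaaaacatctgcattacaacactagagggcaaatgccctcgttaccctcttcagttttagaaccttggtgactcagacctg
A second RCA, of area 549 and 554 bp wide, lay just past the window, 16.3 kb upstream of Insig2. Of 3079 genes of similar length, 17.6% had exactly 1 RCA and 73.7% had 0. Insig1, on chr5:28071363-28078662 (plus strand), had no RCA, and the nearest was 75.9 kb away. Of the 2690 genes of similar length, 18.9% had one.

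Srebf2 encodes the SREBP2 precursor and carries the microRNA gene Mir33 in an intron. It is nearly as long as Scarb1, at 58.2 kb on chr15:82147181-82205379 (plus strand), and had no RCA against 5 at Scarb1. Its nearest RCAs were 219 kb upstream and 171 kb downstream, while 31.0% of the 2168 genes of similar length had at least 1. Hmgcs1, the cytosolic synthase that joins acetyl-CoA and acetoacetyl-CoA ahead of the reductase step, and Sqle, the squalene epoxidase that carries out the first oxygenation of sterol synthesis, are both classical SREBP2 targets. Neither had an RCA. Hmgcs1, on chr13:119690379-119708260 (plus strand), was 92.8 kb from the nearest, and 26.7% of 3026 genes of similar length had at least 1. Sqle, on chr15:59315077-59331192 (plus strand), was 66.1 kb from the nearest, with 26.9% of 2990 genes. A count of 0 was therefore the usual count at genes as long as these 4.

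**Figure D2:**
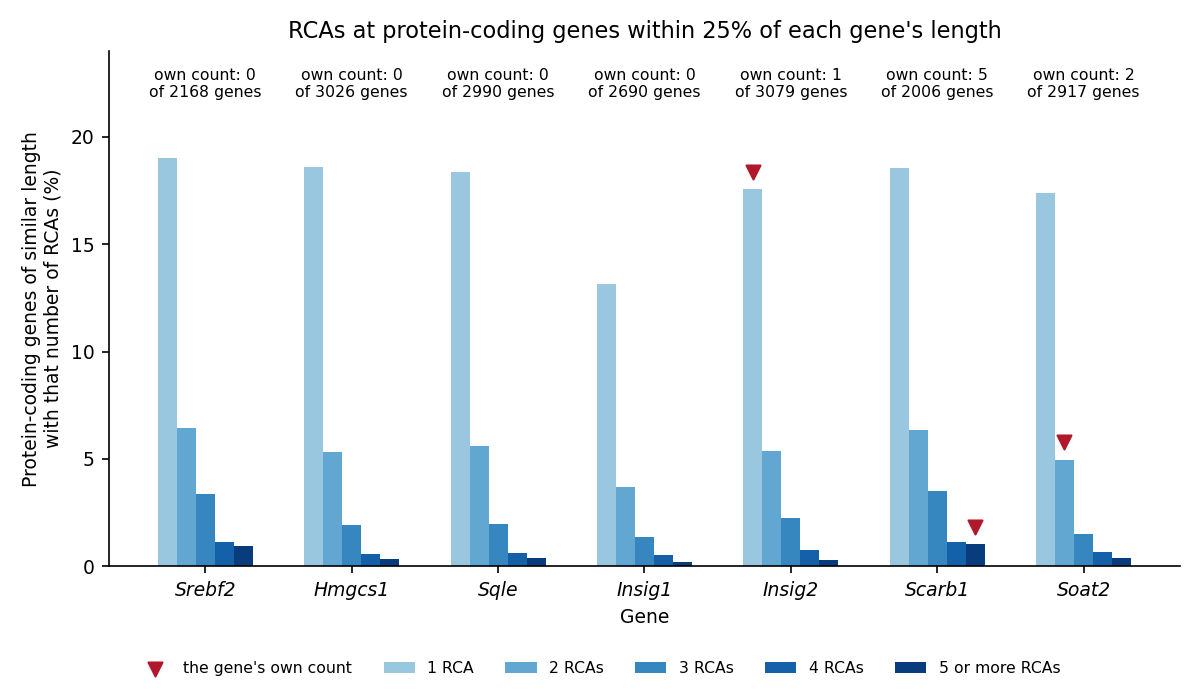
Bars give, for each gene, the percentage of protein-coding genes within 25% of its length that had 1, 2, 3, 4 or at least 5 RCAs in the body or within 10 kb, with the remainder at 0, and the triangle marks the bar of the gene's own count. Scarb1 sits in the bar of 5 or more (1.05% of 2006 genes), Soat2 at 2 and Insig2 at 1, and the 4 genes with no triangle had a count of 0.

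RefSeq promoters (GRCm38.p6, 300 bases around the start) were at hand for 4 of the 7 genes, Srebf2, Hmgcs1, Insig1 and Insig2, the last with 3. The core of the sterol response element, spelled TCACNCCAC and searched on both strands, occurred in 1.24% of 32851 promoters and, of these 6, in that of Hmgcs1. The site is shown with its surroundings (chr13:119690203-119690233, plus strand) as the contrast to the RCAs, since no RCA covered it.
Hmgcs1, sterol response element: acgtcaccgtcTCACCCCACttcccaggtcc
The E-box CACGTG, found in 7.15% of promoters, occurred in that of Insig1. Of the 6 promoters, 4 held CCAAT, the NF-Y box that lies beside sterol response elements in many promoters (37.4% of all), 5 held GGGCGG, the GC box bound by SP1 (35.7%), and 2, those of Hmgcs1 and Insig1, held AGGTCA (16.3%). In windows of 301 bases around the summits, the element core was absent from all 8 RCAs and was present in 1.30% of 8021 RCAs on named chromosomes, and the E-box was likewise absent against 7.48%. The NF-Y box occurred in 3 of the 8 and in 32.7% of RCAs, and the GC box in 1 of the 8, the promoter-class region of Soat2, and in 17.7%. AGGTCA occurred in 5 of the 8 windows, 3 of them at Scarb1 and the others at Soat2 and Insig2, against 30.1% of RCAs. Direct repeats of AGGTCA 4 bases apart, the arrangement that thyroid hormone receptors favour, occurred in 2 RCAs in all and in none of the 8. These are matches of letters, which say nothing of whether a factor was bound.

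As a group, the 8 RCAs were large for the list. Their median area was 466 (315 to 925), and all 8 were above the list's median of 278. An area of at least 300 was reached by all 8 and by 40.8% of RCAs. Their median width was 503 bp (305 to 812 bp) against 326 bp, and their median summit −log10 q was 3.26 (2.97 to 3.70) against 3.14. Since an area sums over a region's bases, wide regions tend to have large ones, and the median area per base pair was 0.987 for the 8 and 0.909 for all RCAs. By class, 1 of the 8 was promoter, 2 exon, 3 intron and 2 intergenic, where the list as a whole was 19.4% promoter, 10.2% exon, 40.0% intron and 30.3% intergenic. The share of G and C ran from 42.3% at Insig2 to 56.0% at the Scarb1 region nearest the start, and the other 7 lay above 50%.

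**Figure D3:**
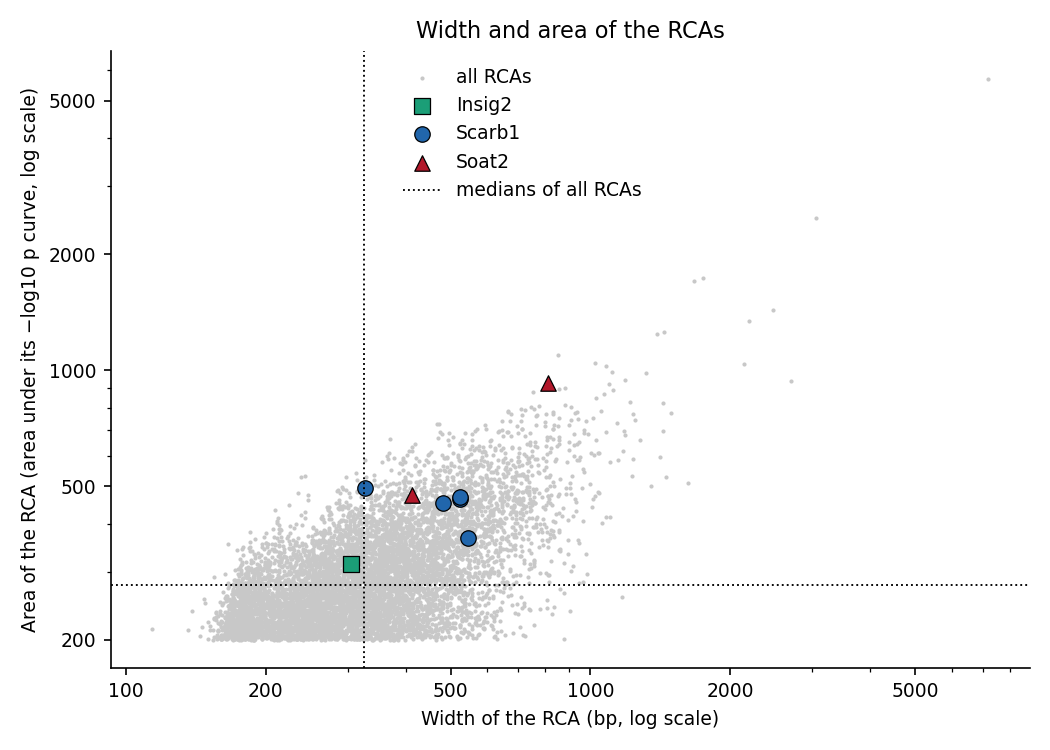
Each grey point is an RCA, placed by its width in bp and by the caller's area from the −log10 p curve, both on log scales. The 8 RCAs of Insig2, Scarb1 and Soat2 are larger symbols, and dotted lines mark the medians of all RCAs (326 bp and 278). All 8 lie above the median area, and the promoter-class region of Soat2, at 812 bp and 925, lies near the upper edge of the cloud.

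The caller numbered the control regions in order along the genome, so a number missing from the list stands for a control region that is not an RCA, although its position is not known. By the highest number, control liver had at least 22368 regions, and RCAs were 35.9% of them. The 5 regions at Scarb1 had consecutive numbers, so no other control region lay between them, and the 2 numbers directly before them, beyond the 3′ end of the gene, were RCAs as well, which makes a run of at least 7. Runs that long held 5.52% of RCAs. On the side of the start, 1 number was missing between the region nearest the start of Scarb1 and the next RCA, 41.6 kb upstream of the gene, an interval that includes the start site. The 2 regions of Soat2 opened a run of 4 that ended 25.5 kb past Soat2 at the start of Csad, and runs of at least 4 held 23.6% of RCAs. Insig2 was in a run of 2, and runs of at least 2 held 64.4%. Around the genes without an RCA, numbers were missing in every interval between the flanking RCAs, with 13 at Srebf2 (448 kb), 10 at Hmgcs1 (344 kb), 8 at Insig1 (417 kb) and 2 at Sqle (151 kb). Control liver thus had open regions around these 4 genes that were not in the list of RCAs, though whether any lay at the genes themselves is not known.

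**Figure D4:**
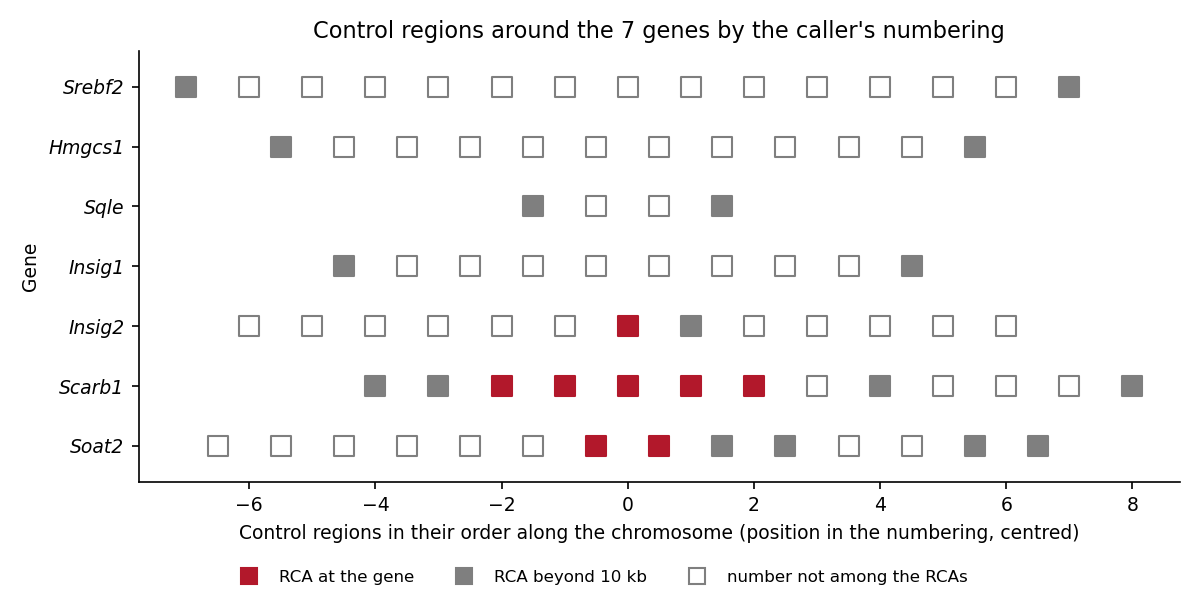
Squares are control regions in their order along the chromosome, 1 row for each gene, centred on its RCAs or, for the 4 genes without any, on the interval between the nearest RCAs. Filled red squares are RCAs at the gene, grey ones RCAs farther than 10 kb, and open ones numbers that are not among the RCAs; at Scarb1 the 5 red squares follow each other with no open square between them, and at Srebf2 13 open squares separate the flanking RCAs.

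The other genes of the pathway were read from 4 lists with 56 genes in all. Of these, 32 (57.1%, Wilson interval 44.1% to 69.2%) had at least 1 RCA, against 24.9% of all protein-coding genes. A region open only in Alb-D2KO liver was found at 0 of them. The interval covers counting error over genes only and is no test of the lists, which were chosen with earlier results of these data known. Abcg5 and Abcg8 were both counted through the same RCA. The count of 32 fell to 16 with an area of at least 300 and to 21 with a summit q of 0.001 or less, while the share of all protein-coding genes fell to 12.8% and 19.5%. By role, RCAs were found at 9 of 20 genes of sterol synthesis, 6 of 12 of sterol sensing and SREBP processing, 8 of 13 of uptake and intracellular transport, and 9 of 11 of esterification, efflux and conversion to bile acids. The mean share over genes of similar length was 24.7%, 27.4%, 28.7% and 27.8% for the same lists. Among the 7 genes, Hmgcs1 and Sqle of the synthesis side had 0 RCAs, and Scarb1 and Soat2 of uptake and esterification had 7 of the 8. The median area was 225 for the 10 RCAs of the synthesis list, 272 for 9 of the sensing list, 303 for 18 of the uptake list and 335 for 15 of the last list. Counts per gene went up to 4, below the 5 of Scarb1, and the summed area of Scarb1 (2248) exceeded that of each of the 56 genes.

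The summed RCA area among the 56 was highest at Lipa, the lysosomal acid lipase that frees cholesterol from ingested esters, with 1686 over 3 RCAs, 1 of them at its start. It was followed by Abca1, which exports cholesterol to apolipoprotein A-I, with 1621 over 4, by Srebf1, the gene of the SREBP that favours fatty acid synthesis, with 1311 over 3, by Npc1, which moves cholesterol out of lysosomes, with 1210 over 4, and by Cyp27a1, a sterol hydroxylase of bile acid synthesis, with 1041 over 3. Soat2, at 1399, would stand between Abca1 and Srebf1. Promoter-class RCAs were found at 7 of the 56 genes (12.5%), a share near the 9.47% of all protein-coding genes. At Lipa (area 719), Erlin1 (297, an endoplasmic reticulum protein of the SREBP complex), Cyp7b1 (390) and Cyp8b1 (260), both hydroxylases of bile acid synthesis, they covered the gene's own start. At Scap (272), the SREBP escort itself, and at Pdzk1 (295), the adaptor that keeps the Scarb1 product at the hepatocyte surface, they lay at start sites inside the gene. The nearest edges of these RCAs were 10397 bp and 649 bp from the gene's start. At Acat2 (438) the RCA lay at the start of the neighbouring gene Acat3. The promoter-class area of Soat2, 925, was above all 7.

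**Figure D5:**
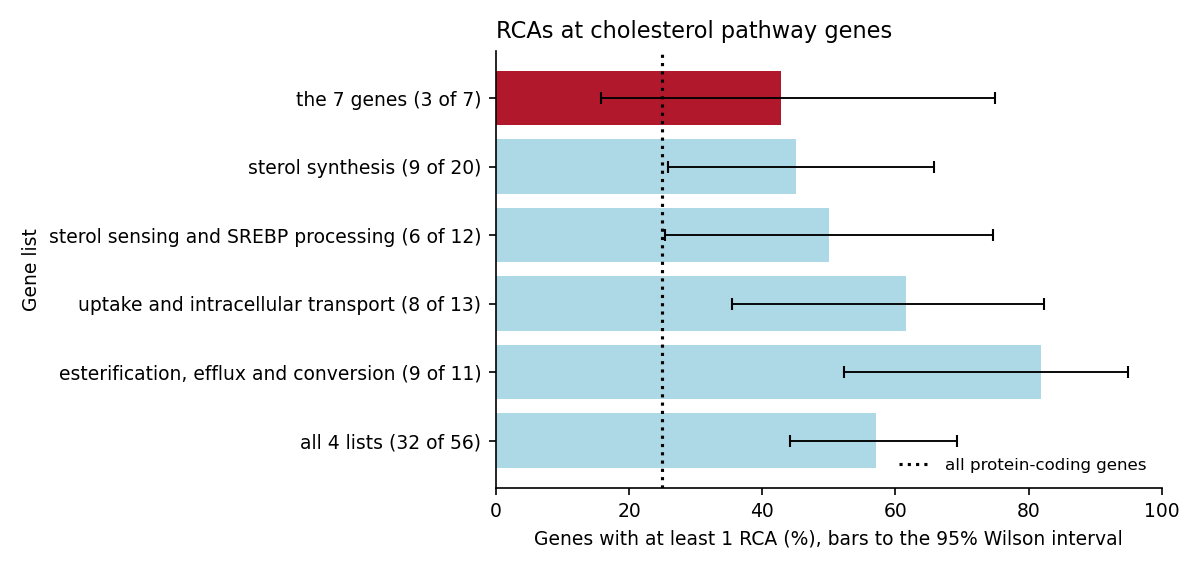
Bars give the percentage of genes with at least 1 RCA in the body or within 10 kb, for the 7 genes in red and for the other pathway genes by list in blue, with 95% Wilson intervals over genes and a dotted line at the share of all protein-coding genes (24.9%). The interval of the 7 genes crosses the line, and the list of esterification, efflux and conversion has the highest share, 9 of 11.

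The comparison with all protein-coding genes, of which 24.9% had an RCA, includes genes that are silent in liver. Of 8 hepatocyte marker genes, 7 had at least 1 RCA (Alb, Ttr, Apoa1, Apob, Hnf4a, Tat and Serpina1a, with 21 in all, and Cps1 with 0). Of 20 markers of other liver cells, 3 had one, which were Pecam1 and Stab2 of endothelial cells and Sox9 of cholangiocytes, while 0 of 6 macrophage and 0 of 5 stellate cell markers did, and lists this short do not set those counts apart from 24.9%. Most of these hepatocyte markers thus had RCAs, and the part of hepatocyte activity in the counts at the pathway genes was not tested.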

How the data were processed

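ATAC-seq libraries of 4 control and 4 Alb-D2KO livers were grouped by the genotype in the labels. Per the study's methods, adapters were removed with NGmerge, BWA 0.7.17 placed the reads on mm10, and alignments of low mapping quality, copies of the same fragment and split or chimeric reads were left out. In runs of Genrich 0.6 on single samples, the authors report only a few regions, which they judged not to come from ATAC enrichment. Those areas were put on a blacklist, so a site on it could enter neither list. Genrich was then run with all samples in a group, so every RCA rests on a grouped call. The authors kept the regions of each genotype that overlapped none of the other. The lists were read as separate calls of the genotypes from their separate numbering, although the methods describe a grouped run. The deposited signal is taken as the caller's area for each region of its pooled call, drawn from the −log10 p curve. The deposited −log10 q is that of the region's summit. Over all RCAs the median area per base pair was 0.909, below the −log10 p that the study's q threshold requires of a base. The area may therefore count only the part of the curve above the calling cutoff. These values were read as given, and no test was run, because pooled lists hold no replicates.

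Here, regions overlapping a GENCODE M21 gene by at least 1 bp, or within 10 kb, were assigned to it, and each was classed as promoter (within 200 bp of any start site), exon, intron or intergenic, in that order. A symbol annotated more than once kept its longest gene. The study's methods name a later GENCODE release. Distances are from the nearest edge of a region. The overlap and class steps were checked on made-up intervals with known answers. Work was done in Python 3.11.15 with pandas 2.3.3 and scipy 1.17.1. The rule for named genes took all 7 genes and, of the pathway lists, those with a promoter-class RCA or a region open only in Alb-D2KO liver, the 5 with the largest summed area, and Dio2. Neighbouring genes were named after their values were seen. The marker genes of liver cells were named outside this rule, and so were Abcg5 and Abcg8, for the region they share. The 7 genes and the lists were chosen with earlier results of these data known. Alternatives changed the flank, area, q, width, overlap, merging, promoter window and length band.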

Additional observations from a re-analysis of the deposited data

How the results depend on the processing

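Counting the gene body alone left 5 RCAs at the 7 genes, and leaving out Scarb1 left 3. The other 14 alternatives gave 6 to 10. Genes with an RCA numbered 2 for the body alone and 3 under the other 8 alternatives run. With an area of at least 300 all 8 RCAs were kept. The promoter-class count went from 1 to 4 with a promoter window of 1000 bp, for which no share over all protein-coding genes is given. No alternative gave a region open only in Alb-D2KO liver, and the median area ran from 459 to 474. Other pathway genes with an RCA fell to 16 with an area of at least 300 and to 21 with a summit q of 0.001 or less.

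The share of genes of similar length with an RCA (25.3% over 12737 genes) and that of all protein-coding genes moved together, to 15.3% and 15.6% for the body alone, 21.0% and 21.0% for a flank of 5 kb, 35.4% and 33.8% for 25 kb, 13.0% and 12.8% for an area of at least 300, 19.7% and 19.5% for the stricter q, and 22.2% and 22.0% for a width of 200 bp or more. For genes of similar length it was 26.1% within 10% of the length and 27.0% without Insig1. Added after seeing the data, RefSeq gene bodies gave 8 RCAs at 3 of the 7 genes and 24.7% of all genes, and leaving out Abcg5, which shares its region with Abcg8, gave 31 pathway genes. Other alternatives were also run for both shares, and their values are not listed here. Over the 9 alternatives run for them, the other pathway genes with an RCA numbered 16 to 36. No replicate could be left out of pooled lists, and depth, which limits what a list can hold, is unknown.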
